A study of Mus musculus with 6 samples.

Results

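The 10 genes described here encode mouse antibody (Fc) receptors and the machinery through which myeloid cells pass on their signal. They were Fcgr1, Fcgr2b, Fcgr3, Fcgr4, Fcer1g, Tyrobp, Trem2, Syk, Spi1 and Laptm5, taken by gene symbol from a table of 21989 gene symbols. All 10 were in the table, and all 10 had a mean of at least 1 FPKM over the libraries, so that they were among the 12269 genes tested. FPKM counts fragments relative to gene length and to library size. Levels of different genes can be set side by side only roughly, because the gene lengths that were used are not given.

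Polyadenylated RNA of tissue labelled as left ventricle was sequenced from male C57BL/6 mice kept free of specific pathogens. The ISO group, which the labels call a heart failure group, received ISO at 10 mg/kg per day under the skin for 3 weeks (3 libraries). The saline group, called sham in the titles, received an equal volume of saline over the same time (3 libraries). The labels give no age and name no single animals, and the p-values therefore reflect only how far these samples differed within a group, which may be technical.

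Fc receptors bind the constant part of antibodies. Activating receptors and Trem2 have no long signalling tail of their own and pair with the small adaptors Fcer1g or Tyrobp, whose ITAM, a tail motif with paired tyrosines, recruits the kinase Syk once it is phosphorylated. Fcgr2b carries an inhibitory motif in its own tail and opposes this signal, and the transcription factor encoded by Spi1, called PU.1, switches on many of these genes in macrophages, the main myeloid cells of the heart.

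The genes lie on 7 chromosomes of GRCm38, by the GENCODE annotation. Fcgr2b (170958617 to 170976547), Fcgr4 (171018920 to 171029761), Fcgr3 (171051174 to 171064935) and Fcer1g (171229572 to 171234365) are neighbours on chromosome 1. Fcgr1 is on chromosome 3 (96282909 to 96293969), Spi1 on chromosome 2 (91082390 to 91115756), Laptm5 on chromosome 4 (130913125 to 130936141) and Tyrobp on chromosome 7 (30413760 to 30417585). Syk is on chromosome 13 (52583173 to 52648792) and Trem2 on chromosome 17 (48346401 to 48354147). Fcgr2b overlaps the antisense gene Gm38204 over 3175 bases, and the strand setting of the counting is not known. The Fcgr genes are related in sequence, and how reads shared between them were counted is not known.

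Because Spi1 is itself one of the genes, the 250 bases before each annotated start were searched for GAGGAA, the core that PU.1 is known to bind, on both strands. RefSeq windows (GRCm38.p6) matched 8 of the 10 genes, and some genes had more than 1 window. The core was in 7 of their 10 windows, which belong to 6 of the 8 genes, against 23.3% of 32851 windows of all genes. The Fcgr3 windows share 1 site, which is counted in each of them, and the share over all genes is per window and not per gene. Spi1 and Tyrobp had no window in the table. The 6 sites are shown as 30 bases each, 5′ to 3′ on the strand of the gene, to let their flanks be compared; capitals mark the core, which reads TTCCTC where it lies on the other strand. Part of the Fcgr3, Fcgr4, Syk and Laptm5 sites lies in annotated exons.
Fcgr1, chr3:96294007-96294036, minus strand: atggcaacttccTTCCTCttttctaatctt
Fcgr3, chr1:171059392-171059421, minus strand: gagtccatttccTTCCTCtttttgtagttc
Fcgr4, chr1:171018892-171018921, plus strand: aaggctatttacTTCCTCtcttctagtcaa
Trem2, chr17:48346349-48346378, plus strand: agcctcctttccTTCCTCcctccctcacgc
Syk, chr13:52596861-52596890, plus strand: tgctgacactttGAGGAAaagccacttccc
Laptm5, chr4:130913266-130913295, plus strand: gcagcctgtggcTTCCTCttttttgttctg

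The core began 55 bases before the start in Fcgr1, 22 in Fcgr4, 40 in Trem2, 9 before the later of the Syk starts, 38 in Laptm5 and 6 or 15 before the separate Fcgr3 starts. In 5 of the 6 genes it lay on the other strand. Fcgr2b and Fcer1g had no such letters in their windows. The longer stretches before Fcgr1, whose groups stood furthest apart relative to their error, and before Fcer1g, which lacked the core, are shown for comparison, with capitals as above. A match is a description of the letters and not evidence of binding.
Fcgr1, chr3:96293970-96294119, minus strand: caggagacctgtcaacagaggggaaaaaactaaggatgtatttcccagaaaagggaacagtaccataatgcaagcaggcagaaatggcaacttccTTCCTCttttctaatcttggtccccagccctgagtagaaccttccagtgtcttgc
Fcer1g, chr1:171234366-171234499, minus strand: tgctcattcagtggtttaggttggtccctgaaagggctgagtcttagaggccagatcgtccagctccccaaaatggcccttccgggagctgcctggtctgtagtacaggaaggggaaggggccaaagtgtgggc

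All 10 genes were higher on average in ISO than in saline, as were 68.1% of all genes tested, although Laptm5 turned with limma-voom and without ISO 2. In bulk tissue, more cells of a type and more RNA per cell cannot be told apart. Their median log2 fold change was 0.88, against 0.20 for all genes, and 0.67 against 0.021 after median-of-ratios scaling, so the fold changes below are read against that general shift. None of the 10 passed the test (limma on log2(FPKM + 1), Benjamini-Hochberg adjusted p under 0.05), and 0% of all genes did. The smallest limma adjusted p of all genes was 0.699. It was shared by 8 of the 10 genes, so it does not rank them. Across all genes 774 had an unadjusted p under 0.05, and limma-voom on recovered reads also called 0 genes, with 683 at an unadjusted p under 0.05. The 10 genes were chosen with earlier results of these data known, so the shares of all genes below are no neutral background for them. All 3 ISO libraries lay above all 3 saline libraries for 5 of the 10 (Fcgr1, Fcgr3, Fcgr4, Fcer1g and Trem2), against 12.8% of all genes. An unadjusted p under 0.05 was reached by 4 of the 10 (Fcgr1, Fcgr3, Fcgr4 and Fcer1g), against 4.92% of all genes on the higher side. With array quality weights, limma called 5 of the 10 (Fcgr1, Fcgr3, Fcgr4, Tyrobp and Spi1), against 4.25% of all genes on the higher side. The weight was 5.50 for ISO 2, the highest, and 0.0772 for saline 3, the lowest.

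**Figure D1:**
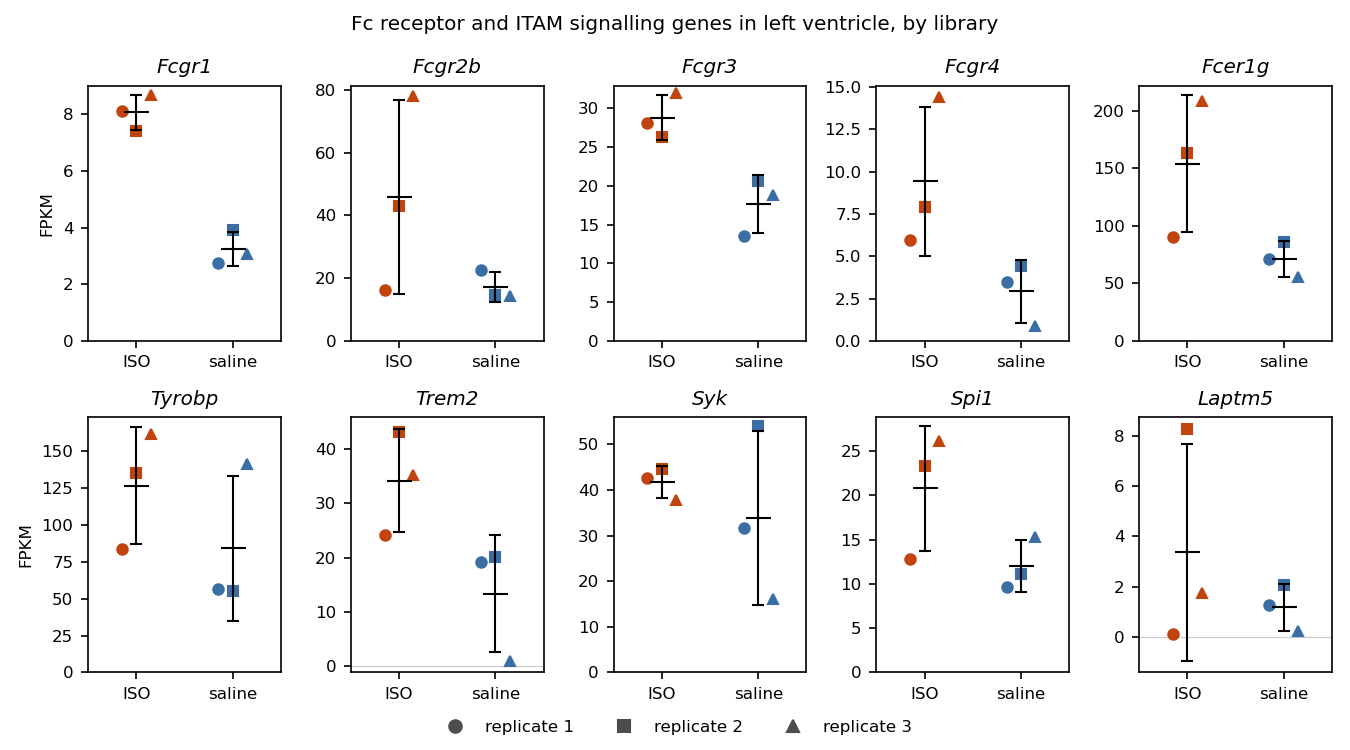
FPKM of each gene (vertical axis, a scale of its own in each panel) in the ISO and saline libraries, with the marker shape giving the replicate number, which does not pair samples. The long horizontal line is the group mean and the bar 1 SD (n = 3 each). Fcgr1 sits between 7.42 and 8.67 FPKM in ISO and between 2.74 and 3.92 FPKM in saline, while Laptm5 spans 0.110 to 8.28 FPKM within ISO.

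The libraries were uneven, which touches several of these values. Recovered reads summed to 5116421 to 7327455 in ISO libraries and to 2754795 to 9796609 in saline libraries, with the lowest sum in saline 3. Saline 3 also stood apart, with a Pearson r across genes of 0.788 to 0.830 with the other libraries, against 0.918 to 0.973 among the other 5. Relative to saline 1 and 2 it was low in long genes. With genes put in 4 equal classes by exon length, the median log2 difference was 0.033 in the shortest class and -0.60 in the longest. Heart muscle markers were present throughout (sums between 12791 and 21362 FPKM in ISO and between 30106 and 42797 FPKM in saline), although Myl7, the light chain typical of atria, exceeded the ventricular Myl2 in 5 of the 6 libraries. The exception was saline 3, with 9101 FPKM of Myl2 and 7469 FPKM of Myl7. In the other libraries Myl2 ran from 140 FPKM in ISO 3 to 2566 FPKM in saline 1. Myl7 ran there from 8354 FPKM in ISO 3 to 16664 FPKM in saline 1. Left ventricle is the tissue that the labels give, and the chamber sampled is less certain for the 5 libraries with more Myl7 than Myl2. The mix of chambers may thus differ between libraries, and its part in the values below was not tested.

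Among the antibody receptors, the high-affinity receptor Fcgr1 separated the groups most clearly. It stood at 8.11, 7.42 and 8.67 FPKM in ISO 1 to 3, against 2.74, 3.92 and 3.06 FPKM in saline 1 to 3. The lowest ISO value was well above the highest saline value, and libraries differed little within each group. The means were 8.07 ± 0.626 FPKM in ISO and 3.24 ± 0.609 FPKM in saline (SD, n = 3 each). Its log2 fold change was 1.10 (SE 0.24, limma adjusted p = 0.699), and lay between 1.02 and 1.22 when any 1 library was left out. These levels rest on 99 to 155 recovered reads in ISO and 22 to 70 in saline.

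Fcgr3, a low-affinity activating receptor for antibody complexes, was more abundant. It stood at 28.1, 26.3 and 31.95 FPKM in ISO 1 to 3, against 13.5, 20.6 and 18.9 FPKM in saline 1 to 3. Every ISO library was above every saline library, with saline 1 the lowest. This gave a log2 fold change of 0.69 (SE 0.24, limma adjusted p = 0.699), and 0.52 to 0.81 with any 1 library left out.

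Fcgr4, a mouse activating receptor for the IgG2 subclasses, was low in all libraries. It stood at 5.96, 7.92 and 14.4 FPKM in ISO 1 to 3, against 3.49, 4.44 and 0.865 FPKM in saline 1 to 3. The groups did not overlap, and ISO 3 and saline 3 formed the extremes. Saline 3 rested on 3 reads, with a 95% exact Poisson interval of 0.178 to 2.53 FPKM, which covers counting error only. Fcgr4 had a log2 fold change of 1.46 (SE 0.49, limma adjusted p = 0.699), and 0.9953 without saline 3.

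Fcgr2b, the inhibitory receptor of myeloid and B cells, varied most among the Fcgr genes within ISO. It stood at 16.3, 43.0 and 77.95 FPKM in ISO 1 to 3, against 22.7, 14.8 and 14.2 FPKM in saline 1 to 3. ISO 2 and ISO 3 were above all saline libraries, while ISO 1 fell within the saline range. The log2 fold change of 1.13 (SE 0.54, limma adjusted p = 0.699) was 1.72 without ISO 1 and 0.63 without ISO 3. The summed B cell markers were 10.7, 6.53 and 58.3 FPKM in ISO 1 to 3, against 20.3, 12.3 and 11.6 FPKM in saline 1 to 3, so ISO 3 was highest for both. The part of B cells in the Fcgr2b values was not tested.

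The balance between activating and inhibitory receptors was read within each library as the ratio of FPKM to Fcgr2b. Fcgr1 to Fcgr2b was 0.498, 0.173 and 0.111 in ISO 1 to 3, against 0.121, 0.266 and 0.216 in saline 1 to 3. Fcgr3 to Fcgr2b was 1.72, 0.612 and 0.410 in ISO 1 to 3, against 0.594, 1.40 and 1.33 in saline 1 to 3. Fcgr4 to Fcgr2b was 0.366, 0.184 and 0.185 in ISO 1 to 3, against 0.153, 0.301 and 0.0609 in saline 1 to 3. The groups overlapped for all 3 ratios, and ISO 1 held the highest value of each. On log2(FPKM + 1), the ratios differed between ISO and saline by -0.030 for Fcgr1, -0.44 for Fcgr3 and 0.33 for Fcgr4. Two-sided exact permutation tests gave p = 1 for Fcgr1, p = 0.7 for Fcgr3 and p = 0.5 for Fcgr4, with an adjusted p of 1 for each over the 3 ratios. The smallest p that 3 against 3 libraries allow is 0.1. The sign for Fcgr1 turned in several alternatives, and that for Fcgr4 turned without ISO 1 and without saline 3.

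**Figure D2:**
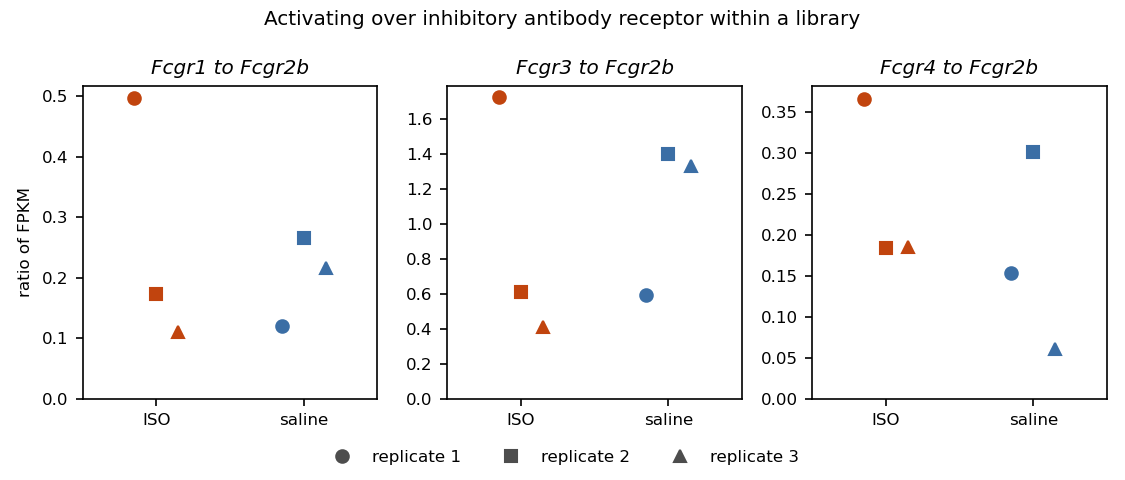
Ratio of FPKM of each activating receptor to the inhibitory Fcgr2b (vertical axis, a scale of its own in each panel) in the ISO and saline libraries, 1 point per library, with the shape giving the replicate number. The groups overlap in each panel, and ISO 1 is the highest point, at 0.498 for Fcgr1 and 1.72 for Fcgr3.

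The ITAM adaptors were the most abundant of the 10 genes. Fcer1g, the common gamma chain that Fcgr1, Fcgr3 and Fcgr4 need, stood at 90.2, 163 and 208 FPKM in ISO 1 to 3, against 71.5, 86.3 and 55.3 FPKM in saline 1 to 3. The groups did not overlap, although ISO 1 was only slightly above saline 2. For Fcer1g the log2 fold change was 1.05 (SE 0.35, limma adjusted p = 0.699), and 0.79 to 1.39 with any 1 library left out.

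Tyrobp, the adaptor of Trem2 and related receptors, stood at 83.6, 135 and 161.5 FPKM in ISO 1 to 3, against 56.3, 55.2 and 141 FPKM in saline 1 to 3. Saline 3 was above both other saline libraries and above ISO 1 and ISO 2, so the groups overlapped. The log2 fold change of 0.68 (SE 0.43, limma adjusted p = 0.699) was 1.12 without saline 3 and 0.45 without saline 2. The ratio of Fcer1g to Tyrobp was 1.08, 1.21 and 1.29 in ISO 1 to 3, against 1.27, 1.56 and 0.392 in saline 1 to 3, so only in saline 3 was Tyrobp the higher of the adaptors. Tyrobp has the shortest exons of the 10 genes, 667 bases in all. The part of gene length in the saline 3 value was not tested.

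Trem2, a receptor for lipids and cell debris on macrophages, had the opposite pattern in saline 3. It stood at 24.2, 43.2 and 35.3 FPKM in ISO 1 to 3, against 19.1, 20.1 and 0.943 FPKM in saline 1 to 3. The groups did not overlap, and ISO 1 was close to saline 1 and 2. Saline 3 rested on 3 reads (95% exact Poisson interval 0.195 to 2.76 FPKM), and the upper bound was below every other library. The log2 fold change of 1.87 (SE 0.89, limma adjusted p = 0.699) was 0.74 without saline 3. The ratio of Trem2 to Tyrobp was 0.290, 0.320 and 0.218 in ISO 1 to 3, against 0.339, 0.364 and 0.00668 in saline 1 to 3. In saline 1 and 2 this ratio was above that of every ISO library.

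Syk, the kinase that binds phosphorylated ITAMs, overlapped widely between the groups. It stood at 42.5, 44.7 and 37.8 FPKM in ISO 1 to 3, against 31.6, 53.9 and 15.99 FPKM in saline 1 to 3. The ISO libraries were close to each other, while saline 2 held the highest value of all and saline 3 the lowest. Syk had a log2 fold change of 0.45 (SE 0.42, limma adjusted p = 0.703), 0.0090 without saline 3 and 0.86 without saline 2. Syk has the longest exons of the 10 genes, 9362 bases in all, and it is used by cells other than myeloid cells too.

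Spi1, which encodes PU.1, stood at 12.8, 23.4 and 26.2 FPKM in ISO 1 to 3, against 9.66, 11.1 and 15.3 FPKM in saline 1 to 3. ISO 2 and ISO 3 were above all saline libraries, and ISO 1 was below saline 3. Spi1 had a log2 fold change of 0.71 (SE 0.33, limma adjusted p = 0.699), and 0.52 to 1.01 with any 1 library left out.

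Laptm5, a lysosomal membrane protein of blood-derived cells that sends receptors to degradation, had the lowest mean of the genes in both groups and varied widely within ISO. It stood at 0.110, 8.28 and 1.73 FPKM in ISO 1 to 3, against 1.25, 2.05 and 0.219 FPKM in saline 1 to 3. ISO 2 was highest, and ISO 1 was lower than every saline library, at 4 reads (95% exact Poisson interval 0.0299 to 0.281 FPKM). Saline 3 rested on 3 reads (0.0451 to 0.639 FPKM), and as these intervals overlap, the order of ISO 1 and saline 3 is uncertain. The log2 fold change of 0.58 (SE 0.77, limma adjusted p = 0.767) turned to -0.22 without ISO 2 and to -0.34 with limma-voom. It was 1.31 without ISO 1, 0.88 without saline 2 and 0.21 without saline 3, so no direction can be given for it. Its relatives Laptm4a and Laptm4b, which most cells express, had log2 fold changes of 0.14 and 0.083, and both turned sign without saline 3.

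**Figure D3:**
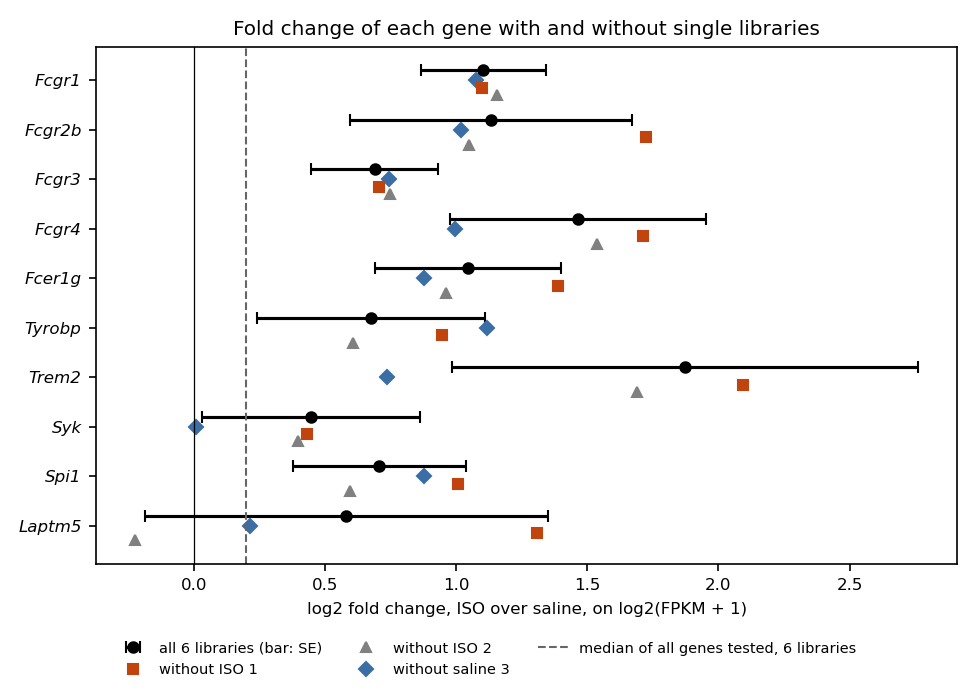
log2 fold change of ISO over saline on log2(FPKM + 1) for each gene (horizontal axis), with all 6 libraries (black, bar 1 SE) and without ISO 1, ISO 2 or saline 3. The dashed line is the median of all genes tested, at 0.20. The points of Fcgr1 lie together near 1.10, while those of Trem2 and Laptm5 spread most, and Fcgr2b and Fcgr4 spread more than Syk.

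By mean level, the order in ISO was Fcer1g (154 ± 59.6 FPKM), Tyrobp (127 ± 39.6), Fcgr2b (45.8 ± 30.9), Syk (41.7 ± 3.54), Trem2 (34.2 ± 9.51), Fcgr3 (28.8 ± 2.88), Spi1 (20.8 ± 7.08), Fcgr4 (9.42 ± 4.41), Fcgr1 (8.07 ± 0.626) and Laptm5 (3.37 ± 4.33; SD, n = 3). In saline, Tyrobp (84.2 ± 49.3 FPKM) and Fcer1g (71.0 ± 15.5) again led, followed by Syk (33.8 ± 19.1), Fcgr3 (17.7 ± 3.69), Fcgr2b (17.2 ± 4.78), Trem2 (13.4 ± 10.8), Spi1 (12.01 ± 2.90), Fcgr1 (3.24 ± 0.609), Fcgr4 (2.93 ± 1.85) and Laptm5 (1.17 ± 0.919). In ISO the gap to the next gene exceeded both SDs between Tyrobp and Fcgr2b, Fcgr3 and Spi1, Spi1 and Fcgr4, and Fcgr1 and Laptm5, and in saline between Fcer1g and Syk and between Spi1 and Fcgr1. All other neighbours differed by less than the larger of their SDs.

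Macrophage markers were higher in ISO as well. Summed macrophage markers were 688, 968 and 823 FPKM in ISO 1 to 3, against 372, 446 and 646 FPKM in saline 1 to 3, with all 13 tested markers higher in ISO. Csf1r, the receptor of the main macrophage growth factor, stood at 32.9, 59.9 and 57.0 FPKM in ISO 1 to 3, against 19.6, 28.0 and 17.4 FPKM in saline 1 to 3. Cd68, a macrophage lysosomal protein, stood at 33.6, 124 and 129 FPKM in ISO 1 to 3, against 19.3, 26.1 and 26.0 FPKM in saline 1 to 3. In both markers ISO 1 was the lowest ISO library, as it was for Fcer1g, Tyrobp, Trem2, Fcgr2b, Fcgr4 and Spi1.

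Relative to Csf1r in the same library, none of the 10 genes separated the groups: 0 of 10 ratios had ISO and saline libraries without overlap, against 38.5% of all genes in either direction. Csf1r itself was higher in every ISO library than in any saline library, and its r with the mean of the members was 0.994. Division by it narrows differences of genes with its pattern and can part groups for genes that did not change. The 38.5% is therefore no neutral background for the members. Fcer1g was 2.74, 2.72 and 3.66 times Csf1r in ISO 1 to 3, against 3.65, 3.08 and 3.18 times in saline 1 to 3. Fcgr1 was 0.247, 0.124 and 0.152 times Csf1r in ISO 1 to 3, against 0.140, 0.140 and 0.176 times in saline 1 to 3. Trem2 was 0.737, 0.721 and 0.619 times Csf1r in ISO 1 to 3, against 0.977, 0.717 and 0.0542 times in saline 1 to 3.

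Markers of other cells were summed too, and several of these sums differed between the groups. Monocytes, which also carry these receptors, had marker sums between 39.3 and 68.4 FPKM in ISO and between 24.4 and 33.7 FPKM in saline, without overlap. Fibroblast markers summed to between 1208 and 1264 FPKM in ISO and between 582 and 870 FPKM in saline, again without overlap. For monocytes and for fibroblasts alike, 5 of the 6 tested markers were higher in ISO (68.1% of all genes were) and 1 was lower. Taken singly, 2 of the 6 monocyte and 4 of the 6 fibroblast markers had ISO above saline without overlap, against 12.8% of all genes. Summed neutrophil markers were 42.5, 40.7 and 147.5 FPKM in ISO 1 to 3, against 58.7, 41.2 and 103 FPKM in saline 1 to 3, with Ly6g listed at 0 in all libraries. Natural killer cells use Fcgr3, and their markers summed to between 4.49 and 8.73 FPKM in ISO and between 2.17 and 3.99 FPKM in saline. Mast cells and basophils use Fcer1g, and their markers summed to between 8.47 and 17.95 FPKM in ISO and between 5.64 and 12.7 FPKM in saline, with Ms4a2 and Mcpt8 listed at 0 throughout. The part of these cells in the values was not tested.

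The 10 genes whose pattern over the 6 libraries was most like the mean of the members were Slamf1, Ncoa7, Dusp4, Csf1r, Fermt3, Rbpj, Atp7a, Pde1b, Piezo1 and Jag1. Their Pearson r ran from 0.9901 (Jag1) to 0.998 (Slamf1), given as a description over 6 libraries. All values of a library share its depth and its mix of cells, which differed between libraries. Among the members themselves, r with that mean was highest for Fcer1g (0.989) and Fcgr4 (0.924), and lowest for Syk (0.572) and Tyrobp (0.507).

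The wider pathway was followed through lists, in none of which a gene passed the test (limma, adjusted p under 0.05). Each list is given beside the median of all genes, 0.20. The lists too were chosen with earlier results of these data known, so shares of all genes are no neutral background for them. Of the other receptors and adaptors that signal through ITAMs, 15 of 31 were tested and 15 were higher in ISO (68.1% of all genes were), with a median log2 fold change of 1.08. In 9 of the 15 the ISO libraries lay above saline without overlap, against 12.8% of all genes. These counts include the platelet receptors Clec1b and Treml1, and the tail of Treml1 carries an inhibitory motif. Clec7a, the receptor for fungal glucans, averaged 16.9 ± 8.67 FPKM in ISO and 3.60 ± 1.08 FPKM in saline. Clec5a, a Tyrobp-linked lectin receptor, averaged 3.25 ± 0.480 FPKM in ISO and 0.893 ± 0.399 FPKM in saline. Of the other Fc receptors 5 of 13 were tested, with 3 higher and 2 lower. Fcgrt, the receptor that recycles antibodies, averaged 70.2 ± 9.89 FPKM in ISO and 47.7 ± 6.18 FPKM in saline. Trim21, an antibody receptor of the cytosol, averaged 17.0 ± 2.67 FPKM in ISO and 9.79 ± 3.13 FPKM in saline.

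Downstream, 29 of 33 kinases and adaptors of the Syk cascade were tested, with 26 higher (68.1% of all genes were) and 3 lower (median 0.67, and 0.41 without saline 3). Lcp2, an adaptor that Syk phosphorylates, averaged 10.1 ± 4.74 FPKM in ISO and 2.17 ± 0.826 FPKM in saline. Sh3bp2, a Syk-binding adaptor, averaged 6.92 ± 1.75 FPKM in ISO and 2.28 ± 0.130 FPKM in saline. ISO was above saline without overlap for 13 of the 29, Lcp2 and Sh3bp2 among them, against 12.8% of all genes.

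The genes that oppose this signal were also mostly higher in ISO. Of 24 tested inhibitory receptors and phosphatases, 23 were higher (68.1% of all genes were) and 1 lower, with a median of 0.76. ISO was above saline without overlap for 10 of the 24, against 12.8% of all genes. Siglece, an inhibitory receptor for sialic acid, averaged 5.81 ± 0.425 FPKM in ISO and 2.48 ± 0.632 FPKM in saline. Clec12a, an inhibitory lectin receptor for uric acid crystals, averaged 9.96 ± 1.11 FPKM in ISO and 2.54 ± 1.97 FPKM in saline. Clec4a2, another inhibitory lectin receptor, averaged 6.03 ± 1.64 FPKM in ISO and 1.95 ± 0.169 FPKM in saline.

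Partners and myeloid targets of PU.1 were higher for 20 of 20 tested (68.1% of all genes were), with a median of 0.75, and 8 of the 20 did not overlap, against 12.8% of all genes. Lyz2, the lysozyme of macrophages, averaged 888 ± 368 FPKM in ISO and 270.4 ± 71.8 FPKM in saline. The 6 phagocyte oxidase genes, whose enzyme makes superoxide after Fc receptor engagement, were all higher in ISO (median 0.98), 5 of them without overlap, against 12.8% of all genes. Cybb, its catalytic subunit, stood at 7.87, 62.1 and 72.1 FPKM in ISO 1 to 3, against 5.59, 2.84 and 1.13 FPKM in saline 1 to 3. ISO 1 was much nearer to saline than to the other ISO libraries, and the log2 fold change of 3.19 (SE 0.84, limma adjusted p = 0.699) was 2.65 to 4.17 with any 1 library left out.

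Of the 16 lipid and lysosome genes linked to Trem2 activity, 15 were higher (68.1% of all genes were) and 1 lower in ISO, with a median of 0.64. ISO was above saline without overlap for only 3 of the 16, against 12.8% of all genes. Lipa, the lysosomal acid lipase, averaged 32.9 ± 12.01 FPKM in ISO and 10.6 ± 2.52 FPKM in saline. Lpl, lipoprotein lipase, which heart muscle cells also make, was the gene on the lower side, at 471 ± 10.8 FPKM in ISO and 679 ± 40.1 FPKM in saline, with no overlap. Heart muscle markers were lower in ISO for 8 of 8 tested, and their part in the Lpl value was not tested. Of the 12 antibody and pentraxin ligands only 4 were found by gene symbol, and 3 were tested (median 0.037, and 0.21 without saline 3). The immunoglobulin heavy and kappa chain genes of the list were not found by symbol.

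**Figure D4:**
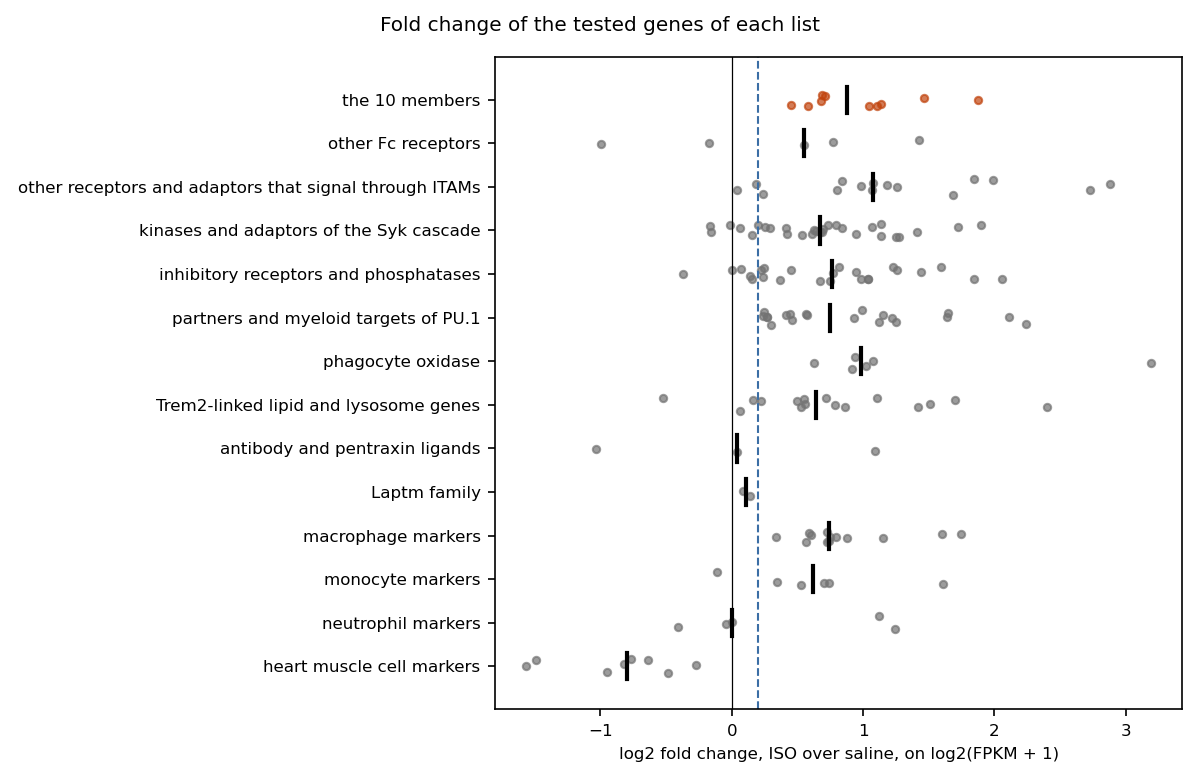
log2 fold change of ISO over saline on log2(FPKM + 1) (horizontal axis) for the tested genes of each list, 1 point per gene, with the list median as a black bar and the median of all genes tested, 0.20, as a dashed line. The 10 genes described here are at the top, with a median of 0.88. The macrophage marker median is 0.74, and the heart muscle marker median of -0.79 is on the other side of 0.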

How the data were processed

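RNA-seq of 3 ISO and 3 saline samples labelled as left ventricle was analysed. The authors deposited FPKM per gene symbol. Tools named in the submitters' processing notes, without role or order, are HISAT2 2.1.0, Cufflinks 2.2.1, HTSeq 0.7.2, DESeq, fastp 0.20.0 and CASAVA 1.8; the build is GRCm38. Annotation and strand setting are not given in the sources used here. FPKM shares 1 library total, so a few abundant genes can shift all others.

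Values were tested as log2(FPKM + 1) over 12269 genes with a mean of at least 1 FPKM, with limma 3.58.1 (R 4.3.3, trend in the variance, no covariate). P-values were adjusted by Benjamini-Hochberg over all genes, with a threshold of 0.05. Fold changes use that scale, which understates low genes. Ratios to Fcgr2b had exact permutation tests. Whole reads were derived from the smallest steps between FPKM values: 100% of 16816 genes above 0 in at least 2 libraries came out whole within 0.0001. Poisson intervals (95%) cover counting error only. Read recovery and the limma code were tested on simulated data. For limma the simulated spread per gene was limited, so that test does not measure power. Other steps ran in Python 3.11.15 with scipy 1.17.1, numpy 2.4.6 and pandas 2.3.3.

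The members and lists were chosen with earlier results of these data known. Genes named from a list are among its up to 4 tested genes with the smallest p, beside 8 fixed markers; some genes that this rule takes are not reported here. Myl2, Myl7, the Laptm4 genes, Ly6g, Ms4a2 and Mcpt8 were named for their role. The libraries of a group differed by more than sampling noise (median chi-square at least 4.44 times sampling) and were counted as separate samples. The comparison relative to Csf1r was added after the values were seen. Protein sequences were not used here. Alternatives were another pseudocount, other filters and scalings, quality weights, limma-voom, a replicate block and each library left out.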

Additional observations from a re-analysis of the deposited data

How the results depend on the processing

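The count of 0 genes called by limma became 768 with array quality weights and 0 to 16 with any 1 library left out (16 without ISO 1). The count of 0 members called became 5 with quality weights. The count of 0 genes called in the lists became 59 with quality weights and 0 to 2 with 1 library left out. The count of 5 members without overlap, whose alternatives were chosen after seeing the data, was 5 with median-of-ratios scaling and 5 to 7 with 1 library left out, reaching 7 without ISO 1 and without saline 3. Leaving out a library can only keep or raise this count, and the share of all genes was not counted for these settings. Laptm5 reversed to -0.34 with limma-voom and ran from -0.22 to 1.31 with 1 library left out. The log2 ratio difference of Fcgr1 to Fcgr2b reversed to 0.13 with a pseudocount of 0.1 and ran from -0.62 to 0.43 with 1 library left out. That of Fcgr4 to Fcgr2b ran from -0.023 to 0.72, and that of Fcgr3 to Fcgr2b from -1.02 to -0.013. The cause of these changes was not tested. Across 130 member fold changes under alternatives, 123 kept direction and side of the threshold, 5 passed it and 2 reversed.

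Same-numbered libraries did not deviate together (correlations of 0.013, -0.15 and -0.025), so the numbers name samples only. With the replicate block, 0 genes and 0 members were called (a block cannot move a fold change in this balanced design). Laptm5, Fcgr4 and Trem2 each had 3 or 4 reads in a library, so those values are imprecise. Laptm5 had 4 reads in ISO 1 and 211 in ISO 2, which had the lower sum of reads. The part of depth in these values was not tested.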

Other observations

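Receptors of platelets were among the genes with the smallest p in the list of ITAM-linked receptors. Treml1, a receptor of platelet granules whose own tail carries an inhibitory motif, stood at 8.78, 5.59 and 7.695 FPKM in ISO 1 to 3, against 1.62, 1.65 and 0.288 FPKM in saline 1 to 3. Every ISO library was above every saline library, and the log2 fold change was 1.99 (SE 0.37, limma adjusted p = 0.699). Clec1b, which activates platelets through Syk, stood at 22.5, 17.1 and 28.0 FPKM in ISO 1 to 3, against 12.6, 11.1 and 7.08 FPKM in saline 1 to 3. Its groups did not overlap either. Platelet markers summed to between 26.4 and 29.7 FPKM in ISO and between 11.6 and 25.8 FPKM in saline, and red cell markers to between 14036 and 29514 FPKM in ISO and between 3236 and 6683 FPKM in saline. The part of blood in these values was not tested.

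Saline 3 held transcripts that the other libraries nearly lacked. Pigr, the receptor that carries antibodies across epithelia, stood at 0.0352, 0 and 0.833 FPKM in ISO 1 to 3, against 0.0527, 0.0824 and 12.2 FPKM in saline 1 to 3. Crp, a pentraxin of liver that can bind Fc receptors, stood at 0, 0 and 0.105 FPKM in ISO 1 to 3, against 0.358, 0 and 5.94 FPKM in saline 1 to 3. Jchain, which links antibody subunits in plasma cells, was highest in ISO 3 at 14.9 FPKM, against 0.451 and 0.462 FPKM in ISO 1 and 2 and 1.37 to 3.14 FPKM in saline.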
